A study of Mus musculus with 10 samples.

Results

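Toll-like receptors are membrane proteins with which macrophages sense microbial lipids, proteins and nucleic acids, and MYD88 and UNC93B1 are 2 proteins that many of them need. The 10 genes described here are the receptors Tlr1, Tlr2, Tlr4, Tlr6, Tlr7, Tlr8, Tlr9 and Tlr13, the signalling adaptor Myd88 and the transport chaperone Unc93b1. They were listed by symbol and matched to the gene IDs of the count table, and all 10 were among the 12411 genes, of 54307 in that table, that were expressed strongly enough to be tested.

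The cells were bone marrow-derived mouse macrophages, differentiated with L-929 fibroblast medium and taken for RNA at day 7. Of the 10 libraries, 5 came from wild-type controls and 5 from animals of the genotype hWDFY3 KI/KI, a homozygous knock-in labelled as overexpressing human WDFY3. All mice were male and 6 to 8 weeks old, the protocol lists 5 mice per genotype, and the labels name no microbial stimulus in either group. The promoter that drives the human gene is not given in the labels, and human WDFY3 RNA is not among the features counted, so the label could not be checked. WDFY3 is a scaffold protein of selective autophagy, and the study asks how more of it changes the macrophage transcriptome. The libraries held 14.6 to 36.4 M estimated counts.

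TLR1, TLR2, TLR4 and TLR6 act at the cell surface. TLR2 pairs with TLR1 or TLR6 to bind bacterial lipopeptides, and TLR4 binds lipopolysaccharide. TLR7, TLR8, TLR9 and TLR13 act in endosomes, where they read RNA or DNA, and UNC93B1 carries nucleic acid receptors there from the endoplasmic reticulum. All 8 receptors listed signal through MYD88, which carries a TIR domain, as they do.

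The libraries carried the markers of macrophages, with Csf1r at 1639 CPM (counts relative to the library size after TMM scaling) and Adgre1 at 888 CPM on average, and 10 of 10 listed markers tested. RNA of other cells differed between libraries and not by genotype alone. The sum of 10 stromal markers was 182 CPM in control 1, 183 in control 4 and 110 in knock-in 4, against 2.44 to 26.2 in the other 7 libraries. The sum of 10 neutrophil markers was highest in the same 3 libraries, at 293, 261 and 220 CPM against 51.9 to 125, and most of it was Mmp8 alone, at 254, 211 and 201 CPM there. The sum of 8 listed markers of plasmacytoid dendritic cells, which also express TLR7 and TLR9, was 116 to 147 CPM. Most of it was Bst2 (72.9 CPM on average) and Tcf4 (49.2 CPM), while Siglech, a defining gene of these cells, was near 0 at 0.517 CPM. In these bulk libraries fewer cells of a type and less RNA per cell cannot be told apart.

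None of the 10 genes passed the test between genotypes. In edgeR's quasi-likelihood test, 0 had an adjusted p under 0.05, against 10 of all 12411 tested genes (0.0806%), and 1 of the 10, Tlr4, had an unadjusted p under 0.05, against 6.21% of all tested genes. DESeq2, limma-voom and limma on the deposited log2 values also called 0 of them. The knock-in and control libraries overlapped for each of the 10 genes, while 1.32% of all tested genes did not overlap. The log2 fold changes, given throughout as knock-in over control, ran from -0.18 for Tlr1 to 0.16 for Tlr4. Their median was -0.023, beside -0.0046 over all tested genes, with 4 positive and 6 negative, against 48.3% positive among all. For all 10 genes the range of 2 SE around the fold change stayed within 1.5-fold either way, as it did for 80.9% of tested genes.

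**Figure D1:**
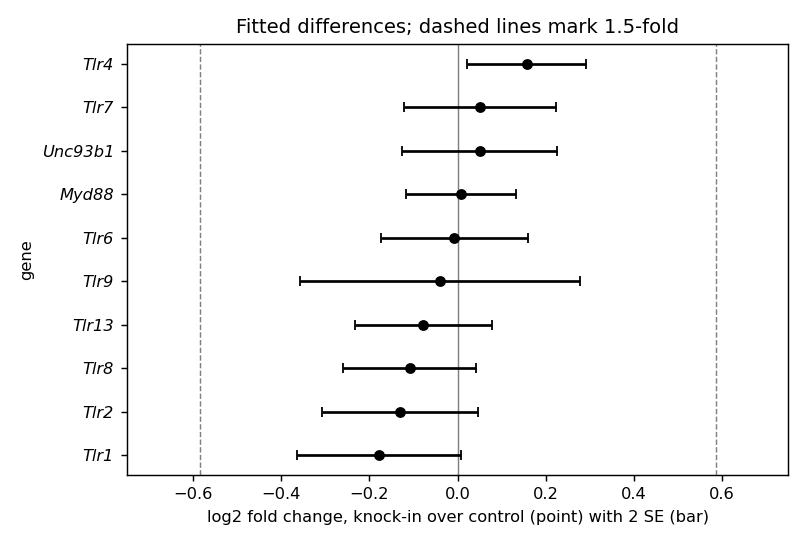
Fitted log2 fold change (knock-in over control) of each gene on the horizontal axis, as points with bars of 2 SE; dashed lines mark 1.5-fold. All bars lie between the dashed lines, and only that of Tlr4 (0.021 to 0.29) does not reach 0.

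In GRCm38 (GENCODE M21), Tlr8 (chromosome X, 167242696 to 167264329) and Tlr7 (167304929 to 167330558) are neighbours on the minus strand, 40.6 kb apart. Tlr1 (chromosome 5, 64924679 to 64933563) and Tlr6 (64952031 to 64960097) are also neighbours on the minus strand, 18.5 kb apart. Tlr13 lies elsewhere on chromosome X (106143204 to 106160493, plus strand). Tlr2 lies on chromosome 3 (83836272 to 83841767, minus strand), Tlr4 on chromosome 4 (66827584 to 66930284, plus strand), and Unc93b1 on chromosome 19 (3935186 to 3949340, plus strand). Tlr9 (106222598 to 106226883, plus strand) and Myd88 (119335934 to 119341411, minus strand) are both on chromosome 9. Myd88 shares 290 bases of exon with Acaa1a on the opposite strand, and whether the counting used the strand is not given, so a part of its reads may belong to Acaa1a.

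Tlr1 and Tlr6 are close paralogs, and their transcripts share long stretches of sequence. Of the stretches of 31 bases in their annotated transcripts, 607 occur in both genes, which is 18.3% of those of Tlr1 and 16.4% of those of Tlr6. Tlr7 and Tlr8 share none, with a longest identical run of 13 bases, and neither do the remaining members with one another. The longest run that Tlr1 and Tlr6 share has 229 bases, all of it coding. It is printed here in capitals with 20 bases of each gene on either side, 5′ to 3′ on the minus strand. A read pair that lies wholly inside it cannot tell the 2 genes apart, and how many pairs do so was not measured. The Tlr1 window is chr5:64925517-64925785 and the Tlr6 window is chr5:64953808-64954076 (GRCm38), and over 269 bases they differ at 2, the first base on each side of the run.
Tlr1: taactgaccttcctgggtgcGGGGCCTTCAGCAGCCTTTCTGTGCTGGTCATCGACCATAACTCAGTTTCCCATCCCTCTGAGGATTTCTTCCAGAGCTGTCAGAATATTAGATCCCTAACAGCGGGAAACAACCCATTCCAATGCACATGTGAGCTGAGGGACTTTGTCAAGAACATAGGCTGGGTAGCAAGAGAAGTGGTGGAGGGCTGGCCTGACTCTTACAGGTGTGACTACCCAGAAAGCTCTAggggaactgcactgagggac
Tlr6: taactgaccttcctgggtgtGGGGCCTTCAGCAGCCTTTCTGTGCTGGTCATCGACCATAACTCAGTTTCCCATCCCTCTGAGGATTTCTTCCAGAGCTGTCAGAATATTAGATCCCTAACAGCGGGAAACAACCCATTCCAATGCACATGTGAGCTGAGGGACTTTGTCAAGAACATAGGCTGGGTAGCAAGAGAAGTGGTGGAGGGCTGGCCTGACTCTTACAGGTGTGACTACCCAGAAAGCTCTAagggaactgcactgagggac

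RefSeq promoters (GRCm38.p6, 250 bases before to 50 after a start) were found for 7 of the 10 genes, namely Tlr1, Tlr2, Tlr6, Tlr8, Tlr9, Tlr13 and Myd88, with 9 start sites in all. They were searched on both strands for GAGGAAG, a core of the binding motif of PU.1, the transcription factor that macrophage genes widely use. It was found in 3 of the 9 promoters, those of Tlr1, Tlr9 and Tlr13, and in 13.6% of 32851 promoters. The 3 matches upstream of the start are printed to show them in place, in each gene's own orientation with the motif in capitals and up to 25 bases on either side, the Tlr1 and Tlr13 windows ending where the annotated gene begins. They lie at chr5:64933564-64933606 (minus strand), chr9:106222461-106222517 (plus) and chrX:106143167-106143203 (plus).
Tlr1: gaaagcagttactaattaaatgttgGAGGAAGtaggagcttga
Tlr9: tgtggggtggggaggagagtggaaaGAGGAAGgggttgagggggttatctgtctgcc
Tlr13: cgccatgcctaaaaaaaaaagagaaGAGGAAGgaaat
GAAA repeated after a gap of 2 bases, a form of the interferon response element, was found in 2 promoters, of Tlr6 and Myd88, and in 3.44% of all. It does not overlap the GAGGAAG matches. TATAAA was found for 3 genes, Tlr6, Tlr8 and Myd88, and in 13.6% of all promoters. In these 3 genes its first base lay between -180 and -89 relative to the start. The motifs were chosen after the sequences were seen, and a match is not shown to be a bound site.

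The most abundant of the 10 transcripts was the chaperone, followed by endosomal receptors. Levels between genes are compared as CPM per kb of merged exon. In the controls Unc93b1 was at 210 ± 30.99 CPM per kb (SD, n = 5), above 98.4% of tested genes. Tlr13, a receptor for bacterial ribosomal RNA, followed at 124 ± 14.9, above 97.3% of tested genes. Tlr8 was at 68.1 ± 6.15 and Tlr7 at 49.7 ± 5.62 CPM per kb. Then came Tlr1 at 24.7 ± 3.12, Myd88 at 23.8 ± 0.892 and Tlr4 at 18.0 ± 1.23. Tlr2 was at 11.7 ± 0.459, Tlr9 at 8.60 ± 2.17 and Tlr6, the lowest, at 6.97 ± 0.947 CPM per kb, still above 61.5% of tested genes.

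This order of neighbours held within each of the 10 libraries for Unc93b1 over Tlr13, Tlr13 over Tlr8, Tlr8 over Tlr7, Tlr7 over Tlr1, Myd88 over Tlr4 and Tlr4 over Tlr2. It held in 9 libraries for Tlr2 over Tlr9 and for Tlr9 over Tlr6. Tlr1 and Myd88 could not be ranked, since Tlr1 was the higher in 5 libraries and Myd88 in the other 5. Dividing by the longest annotated transcript in place of merged exons gave the same order of control means. In the knock-in libraries the levels per kb were 217 ± 4.74 for Unc93b1, 118 ± 6.22 for Tlr13, 63.2 ± 5.15 for Tlr8 and 51.5 ± 5.13 for Tlr7. Their Tlr1 mean (21.8 ± 2.26) lay below that of Myd88 (23.9 ± 2.12), and the ranges of Myd88 and Tlr4 overlapped there, as did those of Tlr8 and Tlr7.

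**Figure D2:**
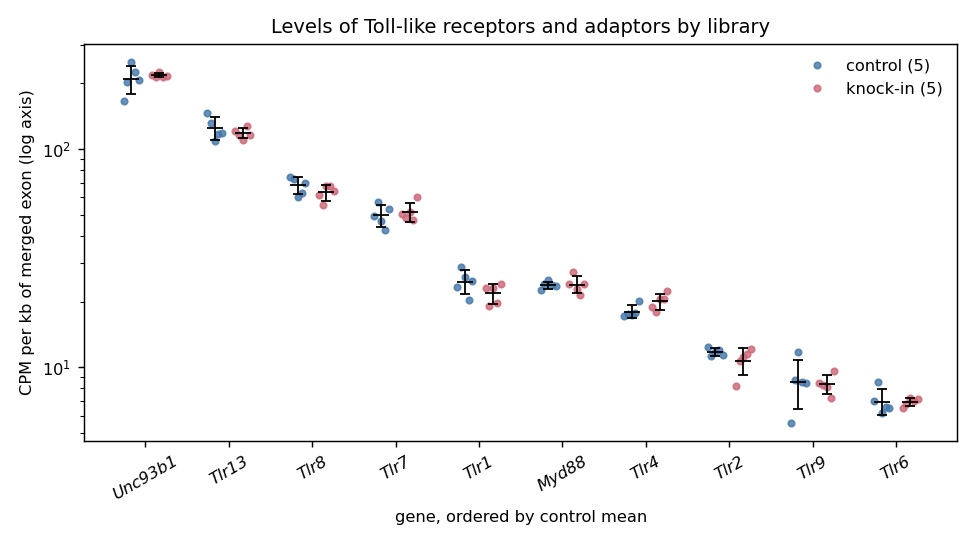
CPM per kb of merged exon on a log axis for each gene, ordered by control mean, with 1 point per library, the group mean as a dash and its SD as a bar. Unc93b1 (210 in the controls) and Tlr13 (124) stand highest and Tlr6 (6.97) lowest, and control and knock-in points overlap for every gene shown.

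Summed per library, the 4 endosomal receptors stood at 227 to 275 CPM per kb in the controls and 228 to 250 in the knock-in libraries. The 4 surface receptors stood at 56.7 to 66.2 and 54.5 to 65.6 CPM per kb. The ratio of the sums was 4.09 ± 0.322 in the controls and 4.06 ± 0.224 in the knock-in libraries (SD, n = 5 each). The endosomal sum was above the surface sum in every library. This is not true of each endosomal receptor, since the control mean of Tlr9 (8.60 CPM per kb) lay below those of Tlr1, Tlr4 and Tlr2. Tlr13 (124 CPM per kb in the controls) was the largest part of the endosomal sum.

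Among the surface receptors, Tlr4 had the smallest p of the 10 genes in the fit on all libraries without covariates. It was at 95.1, 97.4, 96.2, 98.8 and 112 CPM in control 1 to 5 and at 105, 99.3, 114, 114 and 124 CPM in knock-in 1 to 5. Each of the 5 knock-in values exceeded the control median, and control 5 lay above knock-in 1 and 2. The log2 fold change was 0.16 ± 0.068 (SE), with unadjusted p = 0.0379 and adjusted p = 0.786 in edgeR. In edgeR fits that left out 1 library, the unadjusted p ran from 0.00991 (without control 5) to 0.105 (without knock-in 5). With a stromal covariate, added after seeing the data, it was 0.0599, above that of Tlr1 (0.0048). The authors also deposited a log2 scale, taken to be a regularized log, which draws noisy values toward the mean. On it Tlr4 was at 11.08, 11.13, 11.01, 11.004 and 11.08 in the controls. Its knock-in values on that scale were 11.003, 10.97, 11.09, 11.08 and 11.23, so control 2 lay above 4 of the knock-in libraries. The difference there was 0.016 (limma, unadjusted p = 0.747, adjusted p = 0.970). Over the 10 libraries both scales had r = 0.63 for Tlr4, and why they differ was not tested.

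Tlr1 had the largest negative fold change. It was at 78.2, 96.4, 87.1, 68.3 and 82.9 CPM in control mice, against 77.5, 64.0, 77.0, 65.6 and 80.5 CPM in knock-in mice. All 5 knock-in libraries lay under the control median, but control 4 was among the lowest of all. Its log2 fold change was -0.18 ± 0.093 (edgeR, adjusted p = 0.810), and it was -0.12 without control 2 and -0.080 on the deposited log2 scale. With the stromal covariate it was -0.24 ± 0.071 (edgeR, unadjusted p = 0.0048, adjusted p = 0.455). Its neighbour Tlr6 was at 26.2, 31.9, 23.0, 24.4 and 24.3 CPM against 24.2, 25.4, 27.0, 26.1 and 26.6 CPM. Here control 2 was the highest library and control 3 the lowest, so the knock-in values lay inside the control range. The log2 fold change of Tlr6 was -0.0073 ± 0.084 (adjusted p = 0.995 in edgeR).

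Tlr2, the shared partner of TLR1 and TLR6, was at 37.4, 34.0, 35.3, 36.0 and 34.1 CPM in control mice, against 24.6, 32.2, 33.7, 34.6 and 36.4 CPM in knock-in mice. The controls were close together (SD 1.38), and knock-in 1 was the lowest of the 10 libraries. The log2 fold change was -0.13 ± 0.089 (adjusted p = 0.848 in edgeR), and without knock-in 1 it was -0.048.

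Tlr7 and Tlr8, the neighbours on chromosome X, had fold changes of opposite sign, and neither passed the test. Tlr7 was at 201, 233, 191, 173 and 216 CPM in control mice, against 205, 198, 211, 192 and 245 CPM in knock-in mice, with control 4 lowest and knock-in 5 highest. Its log2 fold change was 0.051 ± 0.087 (adjusted p = 0.936 in edgeR), and it was -0.011 without knock-in 5. Tlr8 was at 266, 262, 216, 226 and 251 CPM in control mice, against 220, 198, 242, 242 and 230 CPM in knock-in mice. All 5 knock-in libraries were under the control median of Tlr8, and knock-in 2 was the lowest. Its log2 fold change was -0.11 ± 0.075 (adjusted p = 0.853 in edgeR), and it was -0.063 without knock-in 2 and -0.035 on the deposited log2 scale.

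Tlr9, the receptor for unmethylated CpG DNA, varied most among the controls. It was at 19.4, 30.3, 40.7, 29.7 and 29.6 CPM in control 1 to 5 and at 29.4, 28.9, 28.2, 25.2 and 33.5 CPM in knock-in 1 to 5. Control 1 was the lowest and control 3 the highest of all 10 libraries, a coefficient of variation of 25.2% in the controls against 10.2% in the knock-in libraries. Its log2 fold change was -0.040 ± 0.16 (adjusted p = 0.982 in edgeR), at -0.16 without control 1, 0.093 without control 3 and 0.0051 without knock-in 4.

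Tlr13 was at 631, 567, 467, 503 and 511 CPM in control mice, against 519, 498, 475, 547 and 499 CPM in knock-in mice. Control 1 was the highest and control 3 the lowest, the reverse of Tlr9. The log2 fold change was -0.078 ± 0.078 (adjusted p = 0.891 in edgeR), and -0.011 without control 1.

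Myd88, the adaptor that links the receptors to IRAK kinases, had the smallest SE of the 10 genes. It was at 57.9, 61.8, 64.3, 61.4 and 61.0 CPM in control mice, against 61.9, 70.1, 58.9, 55.3 and 62.1 CPM in knock-in mice. The knock-in libraries held both the highest and the lowest value. Its log2 fold change was 0.0079 ± 0.062 (adjusted p = 0.991 in edgeR), with a range of 2 SE from -0.12 to 0.13.

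Unc93b1 was at 502, 612, 758, 680 and 630 CPM in control mice, against 664, 649, 681, 644 and 655 CPM in knock-in mice. The 5 knock-in values were above the control median and inside the control range, whose ends were control 1 and control 3. The coefficient of variation was 14.8% in the controls and 2.18% in the knock-in libraries, a difference in spread that was not tested. The log2 fold change was 0.050 ± 0.088 (adjusted p = 0.938 in edgeR), and -0.022 without control 1.

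The chaperone and one of the receptors it serves ran against each other from library to library. Of the 45 pairs among the 10 genes, Unc93b1 and Tlr13 had the strongest relation of log2 CPM over the 10 libraries (Pearson's r = -0.92, permutation p = 3.4e-04, adjusted p = 0.0153 over 45 pairs, 2-sided). Spearman's rho was -0.83 (permutation p = 0.00512, adjusted p = 0.230), which did not pass after adjustment. Without control 1 and control 2, the libraries farthest from the Tlr13 median, r was -0.72, and in the 7 libraries with the least stromal RNA it was -0.82. Over all tested genes, 17 (0.137%) had an r with Unc93b1 at or below this value. This pair was singled out after its values were seen.

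Unc93b1 and Tlr9 had r = 0.87 (permutation p = 0.011, adjusted p = 0.165) and rho = 0.39 (permutation p = 0.264, adjusted p = 0.733) over the 10 libraries. This relation rested on control 1 and control 3, since r was -0.037 without them. Of all tested genes, 0.991% had an r with Unc93b1 at or above that of Tlr9. After adjustment 1 of the 45 pairs passed on Pearson's r.

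**Figure D3:**
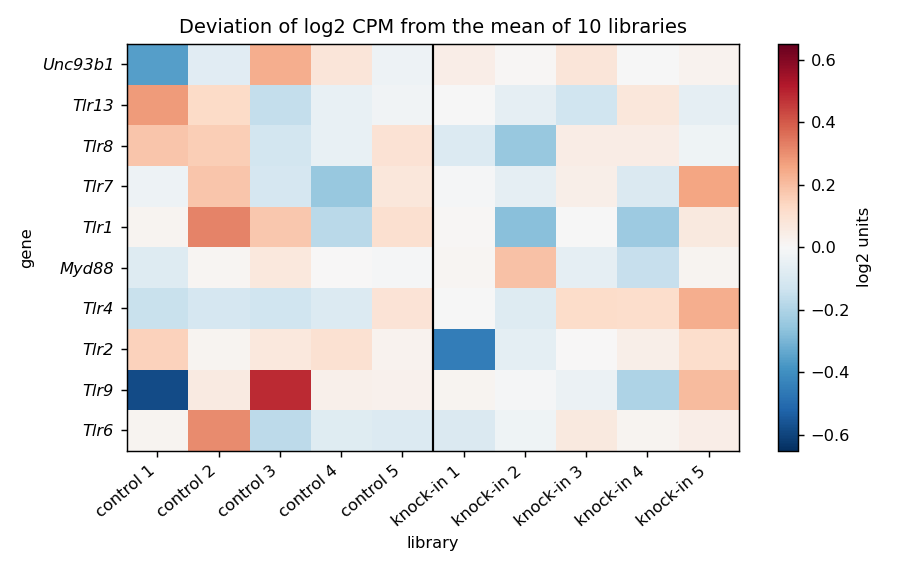
Deviation of log2 CPM from the mean of the 10 libraries, by gene (rows) and library (columns), with red above and blue below the mean and a line between controls and knock-ins. Control 1 is low for Unc93b1 (502 CPM) and Tlr9 (19.4 CPM) and high for Tlr13 (631 CPM), and control 3 shows the reverse.

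By the same measure, the tested genes whose profile over the 10 libraries was most like that of a member had r from 0.91 to 0.97. They were Unkl for Unc93b1 (0.97), Aup1 for Tlr9 (0.96), Gm16199 for Tlr13 (0.96) and Cenpo for Tlr1 (0.95). For Tlr4 it was Dusp2 (0.95), for Myd88 Nrros (0.94), for Tlr8 Psg16 (0.94), for Tlr7 Rabep1 (0.94), for Tlr2 Hfe (0.93) and for Tlr6 Psma4 (0.91). No member was the nearest gene of another. Each is the highest among the 12411 tested genes, so these values are a description and carry no p.

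The count-based and the deposited log2 values ranked the libraries differently for some of the genes. Across the 10 libraries, both scales had r = 0.998 for Tlr9, 0.995 for Myd88 and 0.986 for Tlr2. For Tlr8 r was 0.70, for Tlr4 0.63 and for Tlr6 0.45. The largest gap between the scales for 1 library, each centred on its gene mean, was 0.22 log2 units for Tlr6 (control 3, higher on the deposited scale) and 0.17 for Tlr4 (control 2, higher on the deposited scale). For Tlr9 the largest gap was 0.29 log2 units in control 1, the lowest library on both scales. No source used here states the steps behind the deposited scale, and the cause of the gaps was not tested.

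**Figure D4:**
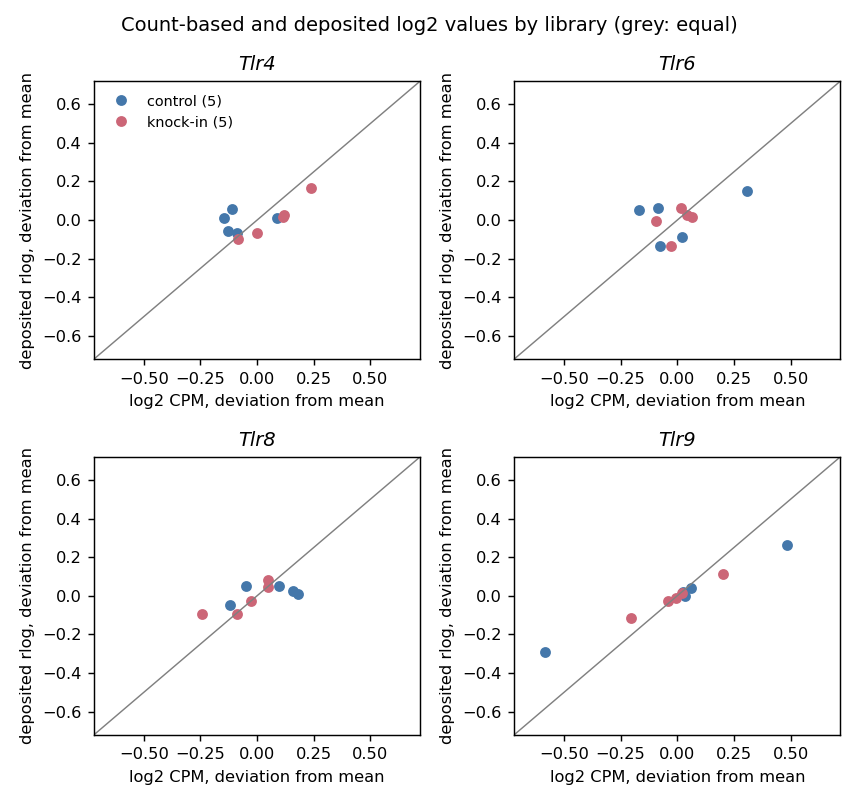
Deposited log2 value against log2 CPM, each as the deviation from the gene's mean over 10 libraries, for Tlr4, Tlr6, Tlr8 and Tlr9, with 1 point per library and a grey line of equality. Points of Tlr9 lie close to a line (r = 0.998), while those of Tlr4 (0.63) and Tlr6 (0.45) scatter.

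The remaining receptors of the family were lower. Tlr3, an endosomal receptor for double-stranded RNA that signals through TRIF and not MYD88, was at 12.8, 13.5, 15.05, 10.9 and 13.5 CPM in the controls. In the knock-in libraries it was at 14.5, 17.7, 16.8, 17.2 and 16.0 CPM, and control 3 alone lay above any of them. Its log2 fold change of 0.32 ± 0.091 was larger than that of Tlr4, but it did not pass (edgeR, unadjusted p = 0.00352, adjusted p = 0.548). Tlr5, Tlr11 and Tlr12 were below the filter, with at most 6, 8 and 5 counts in any library.

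Other genes of the pathway were grouped by role, 71 of them tested, and 0 passed (edgeR, adjusted p under 0.05), with 6 (8.45%) at an unadjusted p under 0.05, near the 6.21% of all tested genes. The median log2 fold change of the 71 was -0.014, with 33 positive (46.5%, against 48.3% of all). Of the 6 co-receptors and ligand-binding partners, 5 were negative (median -0.18). Ly86, which binds the receptor homologue CD180, was at 97.4 ± 10.3 CPM in control and 85.3 ± 7.32 CPM in knock-in mice, with all 5 knock-in libraries under the control median (adjusted p = 0.745 in edgeR). Cd36, a scavenger receptor that assists TLR2 with TLR6, was at 5149 ± 1272 and 3902 ± 847 CPM (adjusted p = 0.799 in edgeR). Its highest values were in the stroma-rich control 1 (6971 CPM), control 4 (5949 CPM) and knock-in 4 (5263 CPM), and their part in the difference was not tested. Of the 4 tested TIR adaptors and relatives, 3 were positive, with Pik3ap1 (BCAP) at 391 ± 96.2 and 471 ± 89.2 CPM and Ticam1 (TRIF) at 36.4 ± 3.44 and 38.8 ± 1.97 CPM.

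Of the 11 genes for folding, transport and processing of the receptors, 6 were positive (median 0.026). Cathepsin L (Ctsl), a protease that cleaves endosomal receptors, was at 3108 ± 516 CPM in control and 2209 ± 729 CPM in knock-in mice, and cathepsin B (Ctsb) at 14366 ± 724 and 16024 ± 1557 CPM. Neither passed (edgeR, adjusted p = 0.795 and 0.788). Hsp90b1, the chaperone gp96 that folds the receptors, was at 919 ± 166 and 851 ± 49.9 CPM.

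Downstream of MYD88, 8 of 18 kinases and ubiquitin ligases were positive (median -0.032). Ube2v1, a partner of the ubiquitin-conjugating enzyme used by TRAF6, was at 95.7 ± 10.2 and 109 ± 8.73 CPM, and Chuk, the kinase IKK-alpha, at 46.0 ± 2.62 and 50.03 ± 2.96 CPM, with adjusted p = 0.778 and 0.799 in edgeR. Of the 10 transcription factors 6 were positive (median 0.016), with Rela at 58.8 ± 7.09 and 63.7 ± 5.15 CPM and Nfkb1 at 80.4 ± 8.10 and 82.5 ± 5.17 CPM. Of 11 tested inhibitors 6 were positive (median 6e-04). Dusp1, a phosphatase of MAP kinases, was at 23.2 ± 1.93 and 19.9 ± 2.87 CPM, and Rnf216, a ubiquitin ligase, at 40.01 ± 1.63 and 43.0 ± 1.91 CPM.

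Most of the 16 genes listed as inducible targets of receptor signalling were low in both groups. Ccl3 was the highest of this list, at 34.2 CPM in control mice, and 6 of the 16 did not reach the filter, among them Il6, Il12b, Ifnb1 and Nos2. Of the 10 tested, 8 were negative (median -0.080) and 2 positive (20%, against 48.3% of all tested genes). A range of 2 SE within 1.5-fold held for 4 of them, against 80.9% of all tested genes. Their median SE was 0.33, against 0.092 over all tested genes, and the list as a whole was not tested. Socs3, a feedback inhibitor of cytokine signalling, was at 2.03 ± 1.39 and 1.08 ± 0.724 CPM, and Ptgs2, which encodes cyclooxygenase-2, at 1.87 ± 0.855 and 1.37 ± 0.477 CPM (edgeR, adjusted p = 0.819 and 0.856). Socs3 was also highest in the stroma-rich libraries, at 3.68 CPM in control 1, 3.40 CPM in control 4 and 2.31 CPM in knock-in 4, against 0.536 to 1.26 CPM in the other 7, and their part in the difference was not tested. Tnf was at 19.0 ± 4.77 and 16.6 ± 3.06 CPM.

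**Figure D5:**
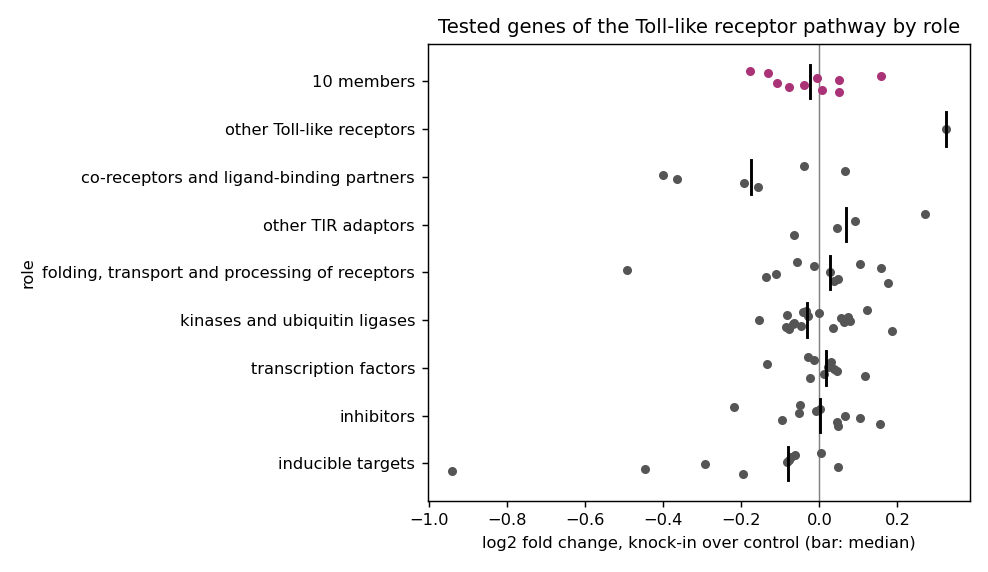
Log2 fold change (knock-in over control) of each tested gene, 1 point per gene, by role in the pathway, with a bar at the median of each role. The 10 members lie between -0.18 and 0.16, and the widest spread is among inducible targets, down to -0.94 for Socs3, whose 3 highest libraries are the stroma-rich ones.

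With the 3 stroma-rich libraries (control 1, control 4 and knock-in 4) left out, 0 of the 10 genes passed in edgeR, while 38 of all tested genes did. Tlr1 was then at -0.25 ± 0.083 (adjusted p = 0.503) and Tlr4 at 0.12 ± 0.085 (adjusted p = 0.860) on the log2 fold scale. Tlr9 moved from -0.040 to -0.16, Tlr7 from 0.051 to 0.0084 and Unc93b1 from 0.050 to -0.0091. These changes were smaller than 2 SE of the fits on all libraries. The fits share libraries, so that SE does not measure the change between them. With the stromal covariate, in edgeR on all libraries, the log2 fold changes were -0.14 for Tlr9, 1e-04 for Tlr7 and 0.022 for Unc93b1. Whether stromal RNA causes the changes seen without the 3 libraries was not tested.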

How the data were processed

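Poly(A)+ RNA was sequenced strand-specifically as 100-bp paired reads, per the labels' protocols. Salmon 1.6.0, MultiQC, DESeq2 1.34.0 and the builds GRCm39 and mm10 appear in the submitters' processing notes, without roles. The authors deposited estimated counts per gene, not normalized. They also deposited log2 values of a selection of genes, taken to be DESeq2's regularized log from the table's name. No source used here states the strand setting, the annotation or how transcripts were summed.

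Counts were rounded and compared by genotype, without covariates, in edgeR 4.0.16 under R 4.3.3 (quasi-likelihood test, robust, TMM scaling). Genes were kept by filterByExpr (minimum count 10, total 15), and Benjamini-Hochberg adjustment covered 12411 genes with a threshold of 0.05. The SE was derived from the log2 fold change and its F statistic. CPM used TMM-scaled sizes, and log2 CPM a prior count of 2. On simulated data for this comparison (12305 genes), 46% of 50 genes changed 1.5-fold were recovered and 98% of 50 changed 2-fold. Other fits changed the scaling (RLE, upper quartile), the tool (DESeq2 1.42.0, limma 3.58.1 as voom and on the log2 values), the filter, the dispersion, the replicate block, or left out 1 library. Added after seeing the data were fits without the 3 stroma-rich libraries, with a stromal covariate, and on unrounded counts. Symbols came from the log2 table, then GENCODE M21, which also gave positions by gene ID, and 1 of 83 listed pathway genes (Peli2) was not matched. Relations between genes were tested with 100000 permutations.

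The members, lists and alternatives were chosen with earlier results of these data known. Named were all members, the remaining Toll-like receptors, the 2 genes of each role with the smallest p, and the gene most like each member. Hsp90b1, Tnf, Ccl3 and the untested targets were named after their values were seen. Marker lists covered macrophages, stromal cells, neutrophils, B cells, plasmacytoid and conventional dendritic cells, and T and NK cells. The sums of the last 2 lists were at most 5.07 and 4.47 CPM in any library, those of B cells at most 5.36, and those of plasmacytoid cells 116 to 147, mostly Bst2 and Tcf4.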

Additional observations from a re-analysis of the deposited data

Results flagged for a closer look

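Tlr4 in control 5 (112 CPM) stood apart from the other 4 controls, which lay between 95.1 and 98.8 CPM. Without control 5 the log2 fold change of Tlr4 was 0.20 ± 0.065 (edgeR, adjusted p = 0.502). Cathepsin L (Ctsl) in control 1 was at 4015 CPM, above the 2740 to 3010 CPM of the other controls. Nfkb1 in knock-in 4, 1 of the 3 libraries with the most stromal RNA, was at 73.4 CPM, below the 83.5 to 85.7 CPM of the other knock-in libraries. Of 50 groups of 5 libraries checked in this way, 3 held such a library, and chance gives about 1 in 20.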

How the results depend on the processing

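In each of the 22 alternatives 0 of the 10 genes and 0 of the pathway genes passed. Over all tested genes 10 passed, against 49 in DESeq2 and 38 with the 3 stroma-rich libraries left out, and between 6 and 23 when 1 library was left out (6 without control 2 or knock-in 1, 2 or 3, 23 without knock-in 4). The cause of these changes was not tested. Tlr1, Tlr2, Tlr4, Tlr8 and Tlr13 kept their direction in every alternative. The sign reversed for Tlr6 with the replicate block (0.0024), without control 2 (0.079) or knock-in 1 (0.016), and for Tlr7 without knock-in 5 (-0.011). It reversed for Tlr9 without control 3 (0.093) or knock-in 4 (0.0051), and for Myd88 without control 1 (-0.010) or knock-in 2 (-0.041) and with the stromal covariate (-0.017). For Unc93b1 it reversed without control 1 (-0.022) and without the 3 libraries (-0.0091). Over fits that each left out 1 library, Tlr6 lay between -0.047 and 0.079, Tlr7 between -0.011 and 0.11, Tlr9 between -0.16 and 0.093, Myd88 between -0.041 and 0.042 and Unc93b1 between -0.022 and 0.12. RLE and upper-quartile factors moved the median of all genes by 7e-04 and 0.0058. Replicate numbers are not said to pair mice. Same-numbered libraries had correlations of deviations from -0.20 to 0.51, and 2 of 5 controls correlated best with their own number. The replicate block gave 12 genes in place of 10.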

Other observations

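Over 11674 genes present in both deposited tables and tested, the median r between log2 CPM and the deposited log2 value across the 10 libraries was 0.92, with a lower quartile of 0.78. The values of Tlr8, Tlr4 and Tlr6 had 18%, 13.5% and 6.78% of these genes below them.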
